A study of Homo sapiens with 8 samples.

Results

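The 9 genes MMP7, SPP1, DEFB1, SOX9, SOX4, ANXA4, PROM1, CFTR and CD24 are used as markers of bile duct cells or of the progenitor cells of the liver. They were followed across hepatoma cells with and without knockdown of the Kelch-like gene KLHL23. Every probe set that the platform annotation pairs with exactly 1 gene symbol, that symbol being 1 of the 9, was taken, which gave 27 probe sets of 41097 with a single symbol and 9 genes of 19775. The genes were picked with their knockdown differences in these arrays already known, so those differences are given as a description without a test. The samples were Huh7 cells with a short hairpin RNA against KLHL23 (Huh7 shKLHL23), Huh7 cells with a hairpin against luciferase (Huh7 shLuc), Hep-3B shKLHL23 cells and Hep-3B shLuc cells. Huh7 and Hep-3B are established human hepatoma lines, and each group had 2 arrays, numbered 1 and 3 in the labels. All 4 groups carried a lentiviral hairpin, delivered at 2 infectious particles per cell (multiplicity of infection), with puromycin added after 48 hours and 10% serum in the medium. The labels give 1 name for the KLHL23 hairpin and do not say whether replicates were separate cultures, so the spread between arrays may be technical.

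Bile duct cells (cholangiocytes) and hepatocytes both descend from the hepatoblast of the fetal liver. Notch signalling and the coactivator YAP favour the bile duct fate, and SOX9 is the transcription factor most used to mark it, in ducts and in the duct-like progenitors of injured liver. Hepatoma cells can carry transcripts of both lineages. The arrays held hepatocyte transcripts together with some duct transcripts. The 28 measured genes of a wider duct list, given below, averaged 5.86 to 6.04 over the arrays. The 9 measured hepatocyte genes averaged 12.01 to 12.43. On each array 2 to 4 of the 28 duct genes lay under the lower quartile. ALB, the albumin gene of hepatocytes, lay between 13.47 and 13.62 on the log2 scale on all 8 arrays. Among the defining duct keratins, KRT19 spanned 8.02 to 12.34 and KRT7 only 5.71 to 6.07, where array medians lay between 4.56 and 4.60. EPCAM, a surface protein of duct and progenitor cells, lay between 10.44 and 11.41.

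The windows of 250 bases before the RefSeq transcription start (GRCh38.p14) were searched for the letters that transcription factors of these pathways bind. The search covered 7 of the 9 genes, 13 windows in all. No window of DEFB1 or SOX9 was searched, and these genes are named only. The letters were TGANTCA (AP-1), CTTTGA (TCF/LEF), ACAAT (SOX factors), TGGGAA (RBPJ, the Notch effector) and GGAATG (TEAD, the partner of YAP), each on either strand. Of all 35116 promoter windows, 6.57% held the AP-1 letters, 11.2% the TCF/LEF letters, 24.6% the SOX letters, 20.8% the RBPJ letters and 11.9% the TEAD letters. Of the 3 windows below, those of MMP7 and SPP1 are shown for the largest Huh7 differences among the 7 genes searched. DEFB1, which was not searched, had a larger Huh7 difference than SPP1 (2.21 against 2.10). The SOX4 window is shown because it held both RBPJ and TEAD letters. The windows run 5′ to 3′ on the strand of the gene, with matches in capitals. A match on the other strand appears as its reverse complement.
MMP7: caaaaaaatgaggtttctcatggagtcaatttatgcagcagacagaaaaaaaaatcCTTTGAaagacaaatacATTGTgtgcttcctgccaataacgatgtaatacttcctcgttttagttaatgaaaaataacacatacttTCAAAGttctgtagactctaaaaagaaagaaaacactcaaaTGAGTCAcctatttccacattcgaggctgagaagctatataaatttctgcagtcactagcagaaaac
SPP1: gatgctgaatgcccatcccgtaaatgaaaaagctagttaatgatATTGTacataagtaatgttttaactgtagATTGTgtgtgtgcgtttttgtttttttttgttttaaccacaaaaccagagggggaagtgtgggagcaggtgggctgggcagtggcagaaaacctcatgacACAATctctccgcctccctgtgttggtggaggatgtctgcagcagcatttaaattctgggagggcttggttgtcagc
SOX4: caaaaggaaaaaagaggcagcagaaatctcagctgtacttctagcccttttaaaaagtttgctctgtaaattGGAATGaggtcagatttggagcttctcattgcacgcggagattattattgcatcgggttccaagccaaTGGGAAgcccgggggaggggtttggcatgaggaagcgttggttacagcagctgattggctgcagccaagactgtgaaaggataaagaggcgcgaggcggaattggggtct
The MMP7 window (chr11:102530748-102530997, minus strand) held TCF/LEF letters beginning 194 and 108 bases before the start, SOX letters at 177 and AP-1 letters at 67. The SPP1 window (chr4:87975464-87975713, plus strand) held the SOX letters 3 times, at 206, 177 and 77 bases before the start. The SOX4 window (chr6:21593501-21593750, plus strand) held TEAD letters at 178 and RBPJ letters at 110. No matches overlapped in these windows. Of the other 10 windows, a window of ANXA4 and another of CD24 held SOX letters, 2 of CD24 held RBPJ letters, with TEAD letters in 1 of them, and 1 of PROM1 held AP-1 and TCF/LEF letters. Each match is a description of the letters, not of binding, and no binding was measured.

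**Figure D1:**
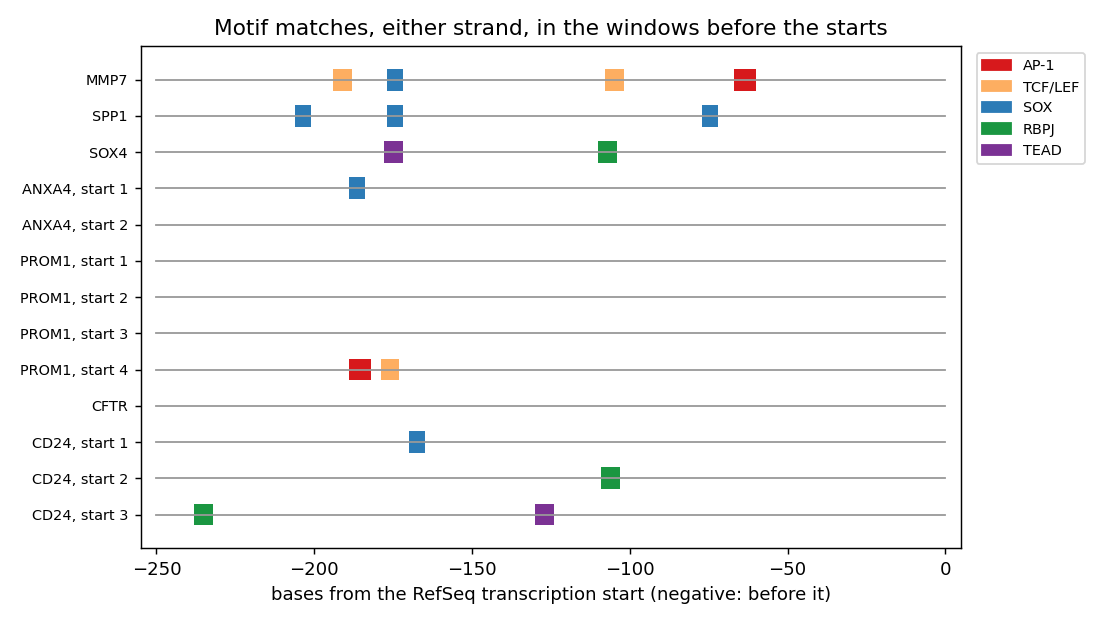
Matches to the letters of 5 kinds of transcription factor in the 13 windows before the starts of 7 marker genes. The horizontal axis gives bases before the RefSeq start, each grey line is a window and each coloured bar a match on either strand. MMP7 and SPP1 hold 4 and 3 matches, and 5 windows hold none.

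RMA, which gave these values, equalises the intensity distributions of the arrays, so their quartiles cannot tell whether hybridisation was even. Array lower quartiles lay between 3.08 and 3.12, and probe sets under that level are called dim here. KLHL23 itself (probe set 241682_at) read 5.78 and 5.88 in Huh7 shKLHL23 against 7.89 and 7.87 in Huh7 shLuc, and 7.21 and 6.15 in Hep-3B shKLHL23 against 7.81 and 7.84 in Hep-3B shLuc. All 4 knockdown arrays were below the controls, with the weakest reduction on Hep-3B shKLHL23 array 1. The ACTB 3′ minus 5′ signal, a sign of RNA integrity, was 0.525 and 0.546 in Huh7 shKLHL23 against 0.873 and 0.833 in Huh7 shLuc, and 0.737 and 0.753 in Hep-3B shKLHL23 against 0.442 and 0.537 in Hep-3B shLuc. The ACTB signal thus moved with the knockdown in opposite directions in the lines. The GAPDH 3′ minus 5′ signal did not. It was 0.2225 and 0.236 in Hep-3B shKLHL23 against 0.1174 and 0.1198 in Hep-3B shLuc. In Huh7 the groups overlapped, at 0.1477 and 0.1121 in shKLHL23 cells against 0.1318 and 0.0887 in shLuc cells. The part of RNA integrity in the results below was not tested. In bulk RNA, fewer cells of a type and less RNA per cell cannot be told apart.

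The secreted products MMP7, SPP1 and DEFB1 had the largest knockdown differences of the 9 genes, and all 3 were higher in Huh7 shKLHL23 than in Huh7 shLuc. MMP7 (chr11:102520508-102530747) encodes matrilysin, a small matrix metalloproteinase that ductal epithelia secrete. Its single probe set read 9.01 and 9.21 in Huh7 shKLHL23, against 5.65 and 5.54 in Huh7 shLuc, and 5.34 and 5.86 in Hep-3B shKLHL23, against 4.42 and 4.45 in Hep-3B shLuc. The arrays did not overlap in either line. All differences are on the log2 scale. That of Huh7 was 3.52 (SE 0.16, n = 2 per group), which is 11.5-fold, and the Hep-3B difference was 1.17 (SE 0.16), which is 2.25-fold. Leaving out each array in turn gave 3.42 to 3.62 in Huh7 and 0.91 to 1.43 in Hep-3B. MMP7 was the only one of the 9 genes with a Hep-3B difference above 1.

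SPP1 (chr4:87975714-87983411) encodes osteopontin, a secreted phosphoprotein that binds integrins and CD44. Its bright probe set 209875_s_at read 11.59 and 12.12 in Huh7 shKLHL23 against 9.79 and 9.71 in Huh7 shLuc, a difference of 2.10 (SE 0.15, n = 2 per group). In Hep-3B it read 12.16 and 12.11 in shKLHL23 cells against 12.12 and 12.14 in shLuc cells, a difference of 0.01 (SE 0.15). The Huh7 knockdown arrays thus came close to or reached the Hep-3B level, and Huh7 shLuc stood alone below the other 3 groups. The other probe set, 1568574_x_at, was faint, at 3.83 and 3.16 in Huh7 shKLHL23 against 2.55 and 2.45 in Huh7 shLuc. Its Huh7 difference was 0.998 and its Hep-3B difference -0.09. The suffixes _s_at and _x_at mark probe sets that can also detect other transcripts.

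DEFB1 (chr8:6870592-6877936) encodes beta-defensin 1, an antimicrobial peptide made constitutively by epithelia. It read 8.21 and 7.86 in Huh7 shKLHL23 against 5.72 and 5.93 in Huh7 shLuc, a difference of 2.21 (SE 0.13, n = 2 per group). In Hep-3B it read 7.27 and 7.35 in shKLHL23 cells against 7.13 and 7.05 in shLuc cells, a difference of 0.22 (SE 0.13). All 4 groups were separate for this gene, in the order Huh7 shKLHL23, Hep-3B shKLHL23, Hep-3B shLuc and Huh7 shLuc. Huh7 cells therefore held both the highest and the lowest level.

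The transcription factors SOX9 and SOX4 were lower in knockdown cells. SOX9 (chr17:72121020-72126416) read 11.08 and 10.84 in Huh7 shKLHL23 against 11.52 and 11.52 in Huh7 shLuc on probe set 202935_s_at, a difference of -0.56 (SE 0.12, n = 2 per group). In Hep-3B it read 10.17 and 9.89 in shKLHL23 cells against 10.63 and 10.72 in shLuc cells, a difference of -0.64 (SE 0.12). The probe set 202936_s_at read 10.94 and 10.81 in Huh7 shKLHL23 against 11.34 and 11.35 in Huh7 shLuc, and gave differences of -0.48 in Huh7 and -0.57 in Hep-3B. On both probe sets the 4 groups were separate, with each Huh7 group above each Hep-3B group and each knockdown group below its own control. SOX9 and MMP7 were the only ones of the 9 genes whose probe sets all differed by more than 0.4 in the same direction in both lines.

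SOX4 (chr6:21593751-21598619), a SOX factor that acts with SOX9 in the development of mouse bile ducts, has 6 probe sets. The brightest, 201417_at, read 10.87 and 10.61 in Huh7 shKLHL23 against 11.25 and 11.20 in Huh7 shLuc, a difference of -0.49 (SE 0.11, n = 2 per group). It read 10.71 and 10.64 in Hep-3B shKLHL23 against 10.87 and 10.86 in Hep-3B shLuc, a difference of -0.19 (SE 0.11). The Huh7 difference was negative on 5 of the 6 probe sets. It was -0.52 on 201416_at, -0.29 on 201418_s_at, -0.29 on 213668_s_at, -0.16 on 1567906_at and 0.02 on 213665_at. The last 2 were faint, and 213665_at lay between 4.74 and 4.84 on all arrays. The mean of the 6 probe sets gave -0.29 in Huh7 and -0.08 in Hep-3B.

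Among the membrane-associated proteins, ANXA4 and PROM1 were higher in Huh7 shKLHL23 than in Huh7 shLuc, and CFTR and CD24 differed little. ANXA4 (chr2:69643808-69827112) encodes a calcium-dependent phospholipid-binding annexin found at the apical side of ductal epithelia. Probe set 201301_s_at read 10.86 and 10.73 in Huh7 shKLHL23 against 9.77 and 9.72 in Huh7 shLuc, a difference of 1.06 (SE 0.09, n = 2 per group). In Hep-3B it read 11.90 and 11.95 in shKLHL23 cells against 11.77 and 11.81 in shLuc cells, a difference of 0.14 (SE 0.09). Probe set 201302_at read 10.93 and 10.86 in Huh7 shKLHL23 against 9.76 and 9.82 in Huh7 shLuc, and gave differences of 1.11 in Huh7 and 0.26 in Hep-3B. On both, each Hep-3B group was above each Huh7 group.

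PROM1 (chr4:15968228-16084023) encodes CD133, a surface glycoprotein of membrane protrusions used to sort progenitor-like cells. It read 4.75 and 5.54 in Huh7 shKLHL23 against 4.07 and 3.96 in Huh7 shLuc, a difference of 1.13 (SE 0.22, n = 2 per group). In Hep-3B it read 4.64 and 4.46 in shKLHL23 cells against 5.19 and 5.02 in shLuc cells, a difference of -0.56 (SE 0.22). Arrays did not overlap within either line, and the directions were opposite. The knockdown replicates of Huh7 lay far apart, and the Huh7 difference was 0.73 without shKLHL23 replicate 3 and 1.52 without shKLHL23 replicate 1. PROM1 had the largest replicate SD of the brightest probe sets, 0.30, against 0.06 for ANXA4.

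CFTR (chr7:117480025-117668665), the chloride channel that drives fluid secretion at the apical membrane of bile duct cells, was near the lower end of the arrays. Probe set 205043_at read 3.34 and 3.38 in Huh7 shKLHL23 against 3.34 and 3.58 in Huh7 shLuc, and 3.41 and 3.48 in Hep-3B shKLHL23 against 3.25 and 3.58 in Hep-3B shLuc. The groups overlapped in every neighbouring pair of the order of levels. The other 5 probe sets were dim on all 8 arrays, at 1.81 to 2.61. Differences over the 6 probe sets ran from -0.23 to 0.13 in Huh7 and from 0.02 to 0.19 in Hep-3B. A difference in CFTR was not detectable at this signal.

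CD24 (chr6:106969831-106976855), a small glycosylated surface protein of epithelial progenitors and a ligand of SIGLEC10, separated the lines. The brightest probe set, 209771_x_at, read 12.63 and 12.47 in Huh7 shKLHL23 against 12.42 and 12.41 in Huh7 shLuc, and 9.23 and 9.26 in Hep-3B shKLHL23 against 9.04 and 9.06 in Hep-3B shLuc. The knockdown differences were 0.13 (SE 0.09) in Huh7 and 0.20 (SE 0.09) in Hep-3B (n = 2 per group). In Huh7 all 6 probe sets were positive, from 0.13 to 0.50. In Hep-3B 4 were positive, at up to 0.21, and 2 were negative, with -0.27 on 208650_s_at and -0.49 on 209772_s_at. Probe set 209772_s_at read 6.91 and 6.68 in Hep-3B shKLHL23 against 7.34 and 7.24 in Hep-3B shLuc, while in Huh7 it read 11.15 and 10.86 in shKLHL23 cells against 10.70 and 10.60 in shLuc cells. The mean of the 6 gave 0.28 in Huh7 and 9e-04 in Hep-3B, so the Hep-3B direction depended on the probe set.

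**Figure D2:**
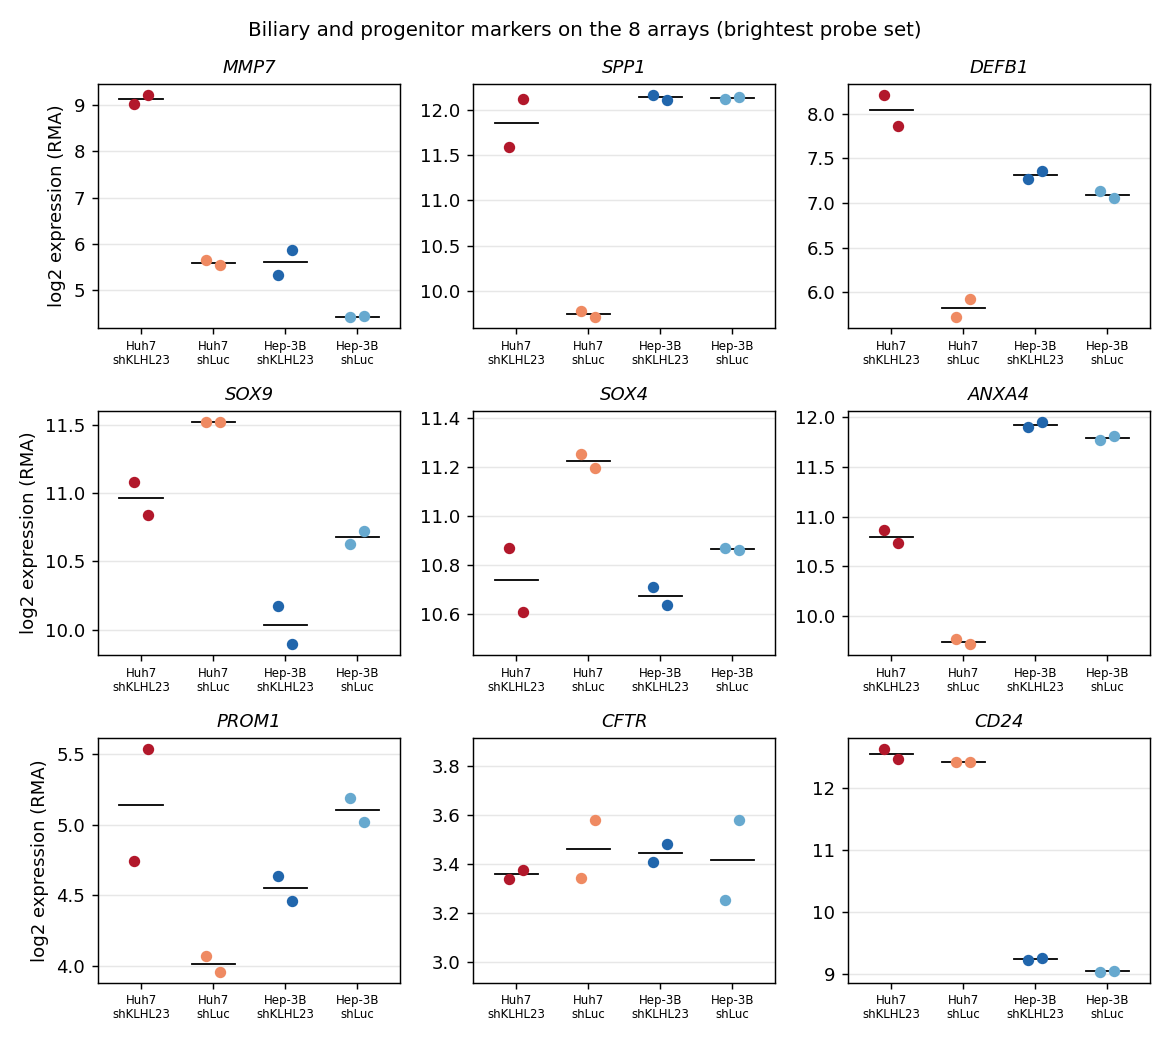
Log2 expression (RMA) of the 9 marker genes on each of the 8 arrays, brightest probe set per gene. Points are single arrays and black bars are means of 2 arrays in Huh7 shKLHL23, Huh7 shLuc, Hep-3B shKLHL23 and Hep-3B shLuc. MMP7 reads 9.01 and 9.21 in Huh7 shKLHL23, above all other arrays, while the SOX9 knockdown arrays lie below the controls of their own line.

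Side by side, the knockdown differences of the brightest probe sets had a median of 1.06 over the 9 genes in Huh7, against -3e-04 over all 19775 genes, and of 0.03 in Hep-3B, against 0.02 over all genes. In Huh7 the arrays of knockdown and control did not overlap for 8 of the 9 genes, where 53.7% of all genes did not overlap, and in Hep-3B for 7 of 9, where 53% did not. Between the lines (Huh7 minus Hep-3B) these knockdown differences were unequal by 2.35 for MMP7, 2.10 for SPP1, 1.99 for DEFB1, 1.69 for PROM1 and 0.92 for ANXA4. The markers are treated here as chosen on their knockdown differences, so the values describe the choice.

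**Figure D3:**
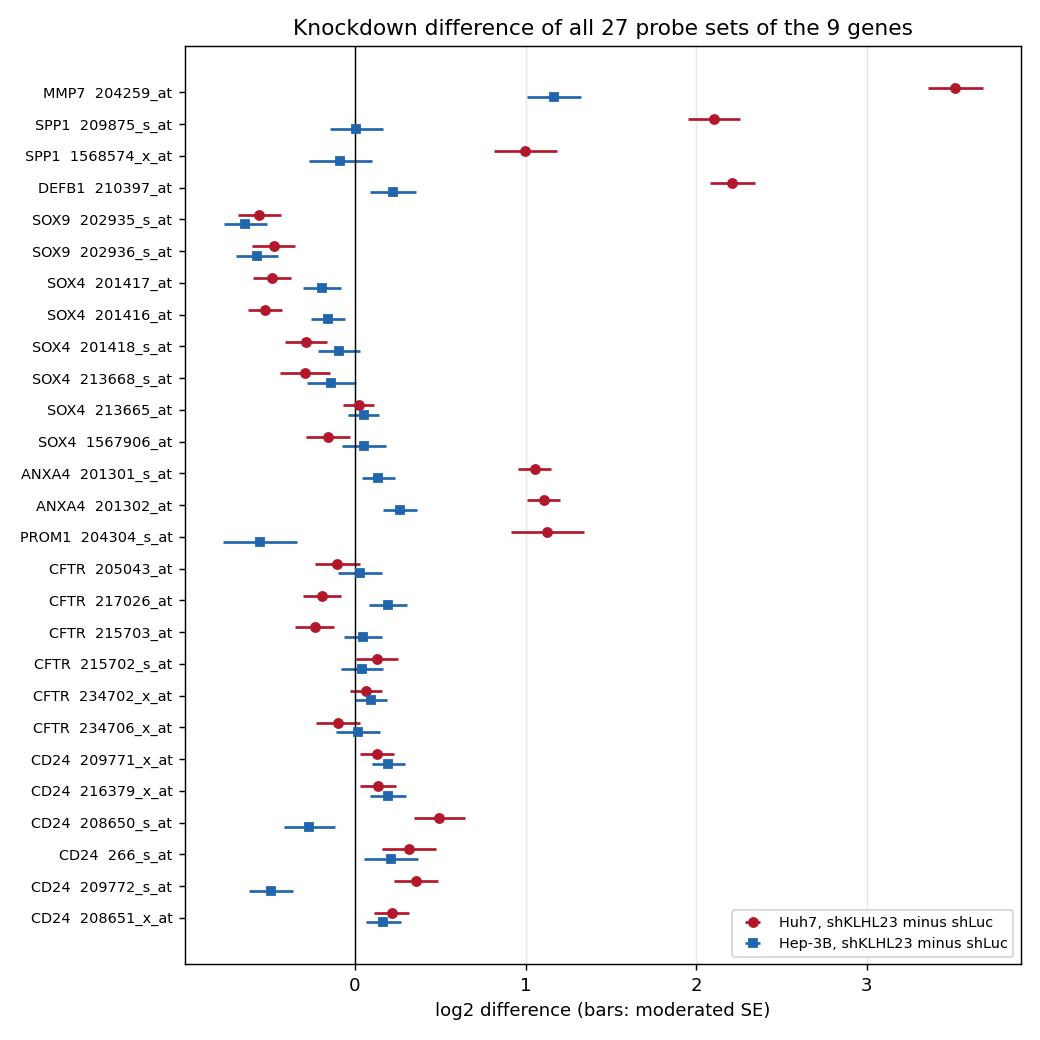
Knockdown minus control difference (log2) of all 27 probe sets of the 9 genes, with Huh7 as red circles and Hep-3B as blue squares. Bars are the moderated SE of each difference. MMP7, SPP1, DEFB1, ANXA4 and PROM1 lie to the right in Huh7, SOX9 lies left of 0 in both lines, and CD24 is split in Hep-3B.

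The lines were compared in their control state, Huh7 shLuc minus Hep-3B shLuc, with limma over all genes. Which values chose the genes is not stated in full, and this contrast was taken as one that the choice did not use. It shares its control arrays with the knockdown differences, so a low Huh7 control level enters both and the tests are not independent of them. Of all genes 32.7% were called, and of the 9 markers 4 were higher in Huh7 shLuc, 4 were lower and CFTR was not called. CD24 was higher by 3.37 (SE 0.09, n = 2 per group, limma adjusted p = 4.68e-08), a 10.3-fold difference, and all 6 probe sets passed, at 3.27 to 3.59. MMP7 was higher by 1.16 (SE 0.16, limma adjusted p = 0.000565) and SOX9 by 0.85 (SE 0.12, limma adjusted p = 0.000803). SOX4 was higher by 0.36 (SE 0.11, limma adjusted p = 0.0294). SOX4 did not pass when any of the 4 control arrays was left out (limma adjusted p = 0.0915 to 0.138), nor as the mean of its probe sets, at 0.17 (limma adjusted p = 0.167).

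The other 4 markers called between the control lines were lower in Huh7 shLuc. SPP1 differed by -2.38 (SE 0.15, n = 2 per group, limma adjusted p = 6.93e-06) and ANXA4 by -2.05 (SE 0.09, limma adjusted p = 7.13e-07). DEFB1 differed by -1.27 (SE 0.13, limma adjusted p = 0.000111) and PROM1 by -1.09 (SE 0.22, limma adjusted p = 0.00447). CFTR differed by 0.05 (SE 0.13, limma adjusted p = 0.835).

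The gene lists below, like the markers, were chosen with earlier results of these data known. Their calls, shares and adjusted p values therefore describe the lists and are not independent of that choice. A wider list of bile duct genes, without the 9 markers, held 28 measured genes of 32 listed. With limma at an adjusted p under 0.05, 4 rose, 1 fell and 23 did not pass in Huh7 shKLHL23 against Huh7 shLuc. The 17.9% that passed is near the 13.5% of all genes called in Huh7, of which 5.75% were higher and 7.73% lower. The median difference was 0.11, against -3e-04 over all genes. KRT19, the duct keratin, read 9.67 and 9.26 in Huh7 shKLHL23 against 8.02 and 8.26 in Huh7 shLuc, and rose by 1.32 (SE 0.15, n = 2 per group, limma adjusted p = 0.00212). CLDN4, a tight junction claudin, rose by 0.88 (limma adjusted p = 0.00652) and FXYD2, a regulator of the sodium pump, by 0.81 (limma adjusted p = 0.00748). EPCAM rose by 0.36 (limma adjusted p = 0.0293). KRT23 fell by 0.40 (limma adjusted p = 0.0175). KRT7 differed by -0.12 (limma adjusted p = 0.488). Without probe sets ending in _x_at or _s_at FXYD2 was 0.08, and CLDN4 as the mean of its probe sets was 0.38, and neither passed then.

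In Hep-3B none of the 28 duct genes passed in limma on its brightest probe set, where 0.693% of all genes did. Of the duct genes 7 had an unadjusted p under 0.05, and the median was -0.01. The largest difference was -0.85 for ELF3, an epithelial transcription factor (limma adjusted p = 0.0633). Next was 0.54 for BICC1, an RNA-binding protein of duct and kidney tubule (limma adjusted p = 0.0728). BICC1 was dim in this line, at 2.82 and 2.58 in Hep-3B shKLHL23 against 2.17 and 2.16 in Hep-3B shLuc. Its other probe set went the other way in Hep-3B, at -0.25. In Huh7 that probe set gave -0.69 (limma adjusted p = 0.00765 over all probe sets). KRT19 read 12.14 and 12.34 in Hep-3B shKLHL23 against 12.10 and 12.01 in Hep-3B shLuc. It was thus far above the Huh7 level before any knockdown. Between the controls 5 duct genes were higher in Huh7 shLuc and 8 lower (46.4%, against 32.7% of all genes). BICC1 led at 5.10 (limma adjusted p = 2.15e-08) and KRT19 at -3.92 (limma adjusted p = 3.53e-07). The BICC1 value sets 7.34 and 7.19 in Huh7 shLuc against the dim Hep-3B level, and its other probe set gave 0.99.

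The progenitor list holds genes used to mark hepatic progenitors or liver cancer stem cells. Of 21 measured genes 1 rose, 6 fell and 14 did not pass in Huh7 shKLHL23, a called share of 33.3% against 13.5% of all genes, with a median of -0.17. For the difference between the lines, 3 of the 49 duct and progenitor genes were called, where 1.26% of all genes were. DLK1, a Notch-like protein of hepatoblasts, read 6.19 and 6.62 in Huh7 shKLHL23 against 8.30 and 8.47 in Huh7 shLuc and fell by 1.98 (SE 0.14, n = 2 per group, limma adjusted p = 0.000453). Its other probe set, at 4.05 to 4.42 on all arrays, gave 0.14. FZD7, a Wnt receptor, fell by 0.78 (limma adjusted p = 0.0165). LGR5, a Wnt-responsive stem cell receptor, fell by 0.61 (limma adjusted p = 0.0193), and the adhesion molecule ICAM1 by 0.52 (limma adjusted p = 0.0308). TBX3 and HMGA2 were the other 2 genes that fell. ANPEP, the peptidase CD13, rose by 0.46 (limma adjusted p = 0.0336) on its brightest probe set, while the mean of its 3 probe sets gave -4e-04.

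In Hep-3B 7 of the 21 progenitor genes had an unadjusted p under 0.05. After adjustment 1 gene fell and 0 rose, where 0.693% of all genes were called. This was ICAM1, at 9.31 and 9.01 in Hep-3B shKLHL23 against 10.04 and 9.78 in Hep-3B shLuc, a difference of -0.75 (SE 0.13, n = 2 per group, limma adjusted p = 0.0465). It passed when Hep-3B shKLHL23 replicate 1 was left out and not when any other array was. LGR5, which fell in Huh7, differed by -0.56 in Hep-3B and did not pass there (limma adjusted p = 0.0858). Its difference between the lines was -0.06 (limma adjusted p = 0.919). AFP, the fetal albumin-like protein, did not pass in Huh7 (-0.48, limma adjusted p = 0.273) or Hep-3B (0.29, limma adjusted p = 0.627). Between the controls 5 progenitor genes were higher in Huh7 shLuc and 6 lower (52.4%, against 32.7% of all genes). GPC3, an oncofetal proteoglycan, differed by -9.07 (limma adjusted p = 6.88e-09) and FZD7 by 3.13 (limma adjusted p = 1.7e-06).

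Notch and YAP signalling acts upstream of SOX9 in bile duct cells, and the list holds genes of both pathways together with their targets. Of 21 measured genes 1 rose, 6 fell and 14 did not pass in Huh7 shKLHL23, where 5.75% of all genes rose and 7.73% fell, and the median was -0.35. AJUBA, a LIM protein that restrains the Hippo kinases, read 8.52 and 8.51 in Huh7 shKLHL23 against 10.45 and 10.44 in Huh7 shLuc. It fell by 1.93 (SE 0.17, n = 2 per group, limma adjusted p = 0.000813). YAP1 fell by 0.99 (limma adjusted p = 0.00159), and its 3 probe sets all passed. HEY1, a Notch target repressor, fell by 0.84 (limma adjusted p = 0.00965) and TEAD4, a DNA-binding partner of YAP, by 0.83 (limma adjusted p = 0.00791). JAG1, a Notch ligand, and LATS2, a Hippo kinase, also fell, by 0.54 and 0.44. WWTR1, which encodes the YAP relative TAZ, rose by 0.39 (limma adjusted p = 0.0185). The YAP targets CCN1 and ANKRD1 did not pass in Huh7, at -0.45 (limma adjusted p = 0.352) and 0.37 (limma adjusted p = 0.2).

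In Hep-3B 0 of the 21 Notch and YAP genes passed in limma, where 0.693% of all genes did, while 10 had an unadjusted p under 0.05, and the median was -0.26. Without Hep-3B shKLHL23 replicate 1, 7 of them passed (AJUBA, ANKRD1, CCN1, CCN2, HES1, JAG1 and NOTCH2). In the fit of all single-symbol probe sets 2 of the 3 HES1 probe sets passed, 203394_s_at (limma adjusted p = 0.0405) and 203395_s_at (limma adjusted p = 0.0342). CCN1, a YAP target, differed by -0.96 (limma adjusted p = 0.124) and HES1, a Notch target, by -0.95 (limma adjusted p = 0.0553). Both were lowest on Hep-3B shKLHL23 array 3, where HES1 read 7.84. In the controls NOTCH2 was higher by 3.07 (limma adjusted p = 1.31e-06) and HEY1 by 3.02 (limma adjusted p = 1.3e-06) in Huh7 shLuc, and ANKRD1, a YAP target, differed by -2.60 (limma adjusted p = 7.29e-06).

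**Figure D4:**
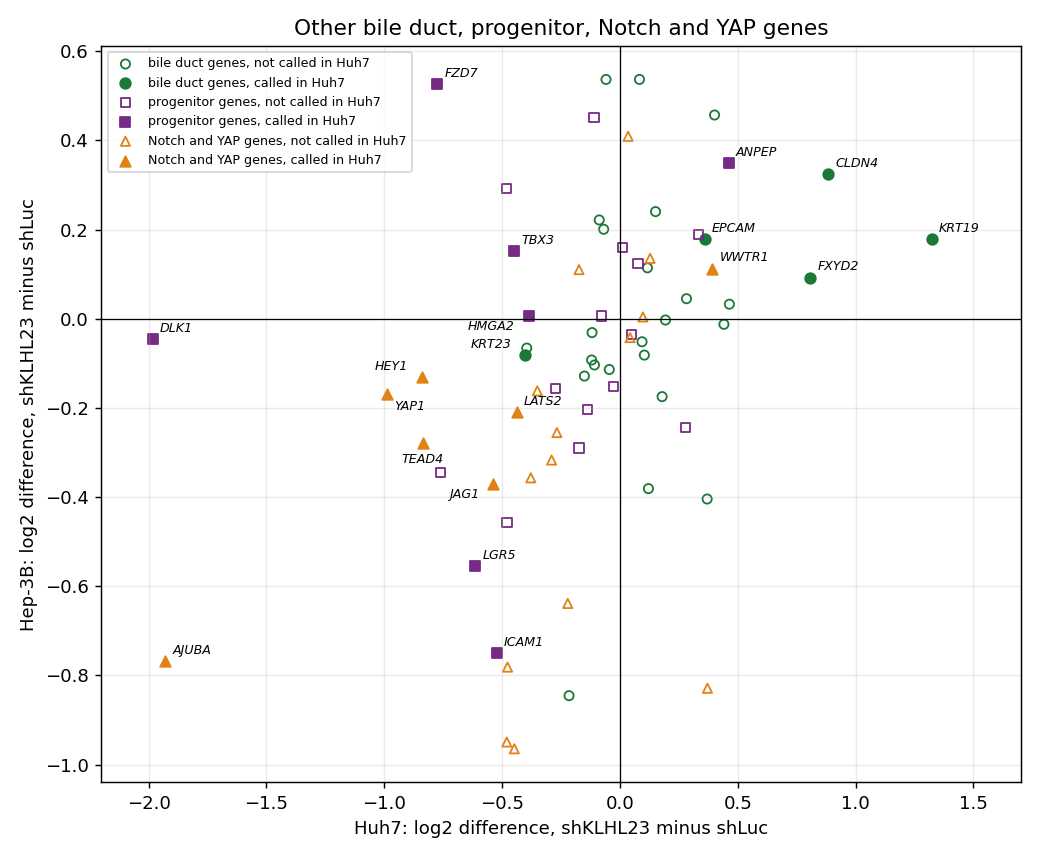
Knockdown minus control difference (log2) in Huh7, horizontal, and Hep-3B, vertical, for the 28 duct, 21 progenitor and 21 Notch and YAP genes apart from the 9 markers. Filled symbols passed in Huh7 (limma adjusted p under 0.05) and are named. KRT19 lies at 1.32 in Huh7, DLK1 at -1.98 and AJUBA at -1.93, where AJUBA differed by -0.77 in Hep-3B and did not pass.

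Among the other SOX factors, 1 of 18 rose and 1 fell in Huh7 shKLHL23 (11.1%, near the 13.5% of all genes), with a median of -0.01. SOX5 rose by 0.53 (limma adjusted p = 0.0216) and SOX12, the close relative of SOX4, fell by 0.59 (limma adjusted p = 0.00641) on the brighter of its probe sets, while 228358_at gave -0.03 (limma adjusted p = 0.898). In Hep-3B none passed in limma, and 2 had an unadjusted p under 0.05. Between the controls 0 were higher in Huh7 shLuc and 4 lower (22.2%, against 32.7% of all genes). SOX5 was among the 4, at -0.76 (limma adjusted p = 0.00117).

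Receptors, inhibitors and partners of MMP7, SPP1, CD24 and CFTR were measured for 20 of 21 genes. In Huh7 shKLHL23 2 rose, 1 fell and 17 did not pass (15% called, near the 13.5% of all genes). TIMP2, an inhibitor of matrix metalloproteinases, read 9.07 and 8.76 in Huh7 shKLHL23 against 7.60 and 7.83 in Huh7 shLuc and rose by 1.2 (SE 0.15, n = 2 per group, limma adjusted p = 0.00277). Its 3 probe sets all passed. TIMP1, of the same family, rose by 0.82 (limma adjusted p = 0.0178). ITGA4, an integrin subunit that binds osteopontin, fell by 0.52 (limma adjusted p = 0.0458) at a dim 2.08 to 2.88 across all arrays. The osteopontin receptor CD44 differed by 0.08 (limma adjusted p = 0.666) and the integrin subunits ITGAV and ITGB1 by 0.07 (limma adjusted p = 0.722) and 0.02 (limma adjusted p = 0.9). In Hep-3B none of the 20 passed in limma, and 4 had an unadjusted p under 0.05. TIMP2 differed there by 0.58 (limma adjusted p = 0.0954), with 9.91 and 10.23 in Hep-3B shKLHL23 against 9.45 and 9.55 in Hep-3B shLuc. Between the controls 2 were higher in Huh7 shLuc and 4 lower (30%, near the 32.7% of all genes). TIMP2 was among the 4, at -1.78 (limma adjusted p = 2.87e-05).

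Calls in Huh7 became fewer when a Huh7 control array was left out, in the lists and over all genes. Over all genes 2666 were called in Huh7, 558 without Huh7 shLuc replicate 1 and 545 without replicate 3. Of the 24 genes of the 5 lists called in Huh7, 7 passed without Huh7 shLuc replicate 1 (AJUBA, CLDN4, DLK1, KRT19, TEAD4, TIMP2 and YAP1) and 6 without replicate 3 (AJUBA, DLK1, KRT19, SOX12, TIMP2 and YAP1). Leaving out 1 of the Huh7 shKLHL23 arrays gave 15 in either case. Such a fit leaves a lone array in a group, whose spread is taken from the other groups.

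On their brightest probe sets, markers of macrophages, endothelial cells and fibroblasts did not pass in either knockdown in limma. The endothelial adhesion gene PECAM1 differed by 0.44 in Huh7 on its brightest probe set (limma adjusted p = 0.069) and by -0.99 on the fainter 208982_at (limma adjusted p = 0.00381 over all probe sets). The 5 macrophage genes averaged 4.17 and 4.35 in Huh7 shKLHL23 against 4.35 and 4.39 in Huh7 shLuc, and 4.01 and 4.27 in Hep-3B shKLHL23 against 4.03 and 3.87 in Hep-3B shLuc. PTPRC, the pan-leukocyte gene CD45, was dim on all arrays, at 2.33 to 2.63. Array means of the 6 endothelial genes lay between 3.61 and 4.06 and of the 6 fibroblast genes between 4.21 and 4.54. At an unadjusted p under 0.05, Huh7 held 0 macrophage, 2 endothelial and 1 fibroblast genes, and Hep-3B held 1, 1 and 0. The 9 hepatocyte genes averaged 12.01 to 12.43 over the arrays.

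For each marker, the 3 genes with the most similar pattern were taken from 3818 genes with a range of at least 1 on the log2 scale, by Pearson correlation over the 8 arrays. These correlations rest on 4 groups of 2 arrays and are descriptive. CD24 ran most closely with ANXA2 (r = 0.9996), SELENOH and GTSF1, which all separate the lines. ANXA2 read 12.25 and 12.11 in Huh7 shKLHL23, 12.01 and 12.01 in Huh7 shLuc, 9.65 and 9.73 in Hep-3B shKLHL23, and 9.48 and 9.52 in Hep-3B shLuc. SPP1 ran with IFITM2 (r = 0.987), CPT1A and EEIG1. CPT1A, the carnitine palmitoyltransferase of liver mitochondria, read 8.25 and 8.32 in Huh7 shKLHL23 against 5.40 and 5.40 in Huh7 shLuc, and 9.17 and 9.41 in Hep-3B shKLHL23 against 8.95 and 8.83 in Hep-3B shLuc. Like SPP1, it was lowest by far in Huh7 shLuc.

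MMP7 ran with RBIS (r = 0.991), PET100 and HMG20B. RBIS read 10.24 and 10.25 in Huh7 shKLHL23 against 9.50 and 9.47 in Huh7 shLuc, so its range was much smaller than that of MMP7. DEFB1 ran with FAM114A1 (r = 0.980), S100A6 and MINK1, and ANXA4 with CD74 (r = 0.996), EPS8L2 and HSPG2. SOX9 ran with CRLF3 (r = 0.996), KCNMB3 and EMSLR, and SOX4 with LINC00326 (r = 0.971), NUAK1 and BIK. PROM1 had looser neighbours in GLIPR1 (r = 0.885), KANSL1L and ZNF117. CFTR, with a range of only 0.33, reached 0.627 with GPR137C, followed by CCDC138 and MARCHF3.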

How the data were processed

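RNA of 8 samples was hybridised to Affymetrix arrays. Per the submitters' processing notes, the authors ran RMA in Affymetrix Expression Console 1.2, and the values they deposited are on the log2 scale. RMA equalises the intensity distributions of the arrays and shrinks changes of dim probe sets. Of 54675 probe sets, 41097 were paired with 1 symbol, 1801 with several and 11777 were unnamed in the platform annotation. Symbols of 41043 were looked up in RefSeq GRCh38.p14, which changed 0. A gene was represented by its brightest probe set (mean over 8 arrays), without a filter. limma 3.58.1 in R 4.3.3 fitted 4 group means to all 8 arrays, with eBayes (4 residual and 4.59 prior degrees of freedom) and Benjamini-Hochberg adjustment over 19775 genes, and a gene was called under 0.05. SEs are moderated SEs of log2 differences. The number of arrays limits the precision. Differences of single probe sets came from the same model over all 41097.

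The markers and gene lists were chosen with earlier results of these data known. Named list genes were up to 4 called genes per list, contrast and direction with the largest difference and no overlap of arrays, or the 2 largest where none was called. ALB, PTPRC, KRT7, AFP, CD44, ITGAV, ITGB1, TBX3, HMGA2, JAG1 and LATS2 were named beyond that after their values were seen. Per-gene promoter windows are from RefSeq. Alternatives were the mean of probe sets, leaving out _x_at and _s_at probe sets, quantile normalization, median centring, leaving out dim genes, an intensity trend with robust moderation, array weights, a replicate block, fits of a single line, each array left out, and, added after the data were seen, a fit of all single-symbol probe sets. The procedure was tested on simulated data.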

Additional observations from a re-analysis of the deposited data

Results flagged for a closer look

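Differences between the lines in the knockdown effect, Huh7 minus Hep-3B, were called by limma for 5 genes of the lists, where 1.26% of all genes were called. KRT19 differed by 1.14 (limma adjusted p = 0.0476), with 1.32 in Huh7 and 0.18 in Hep-3B, and did not pass as the mean of its probe sets, at 0.66 (limma adjusted p = 0.22). DLK1 differed by -1.94 (limma adjusted p = 0.00837), with -1.98 in Huh7 and -0.05 in Hep-3B. FZD7 differed by -1.30 (limma adjusted p = 0.0413), with -0.78 in Huh7 and 0.53 in Hep-3B. Its other probe set, 203706_s_at, gave -0.58 (limma adjusted p = 0.289), with -0.66 in Huh7 and -0.08 in Hep-3B. YAP1 differed by -0.82 (limma adjusted p = 0.0408), with -0.99 in Huh7 and -0.17 in Hep-3B. SOX12 differed by -0.77 (limma adjusted p = 0.0396), with -0.59 in Huh7 and 0.18 in Hep-3B. Its other probe set, 228358_at, gave 0.07 (limma adjusted p = 0.879), with -0.03 in Huh7 and -0.10 in Hep-3B.

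For 4 probe sets of the markers every knockdown array lay on opposite sides of its controls in the 2 lines, and the difference is given without a test, since the markers were chosen with their knockdown differences known. It was 1.69 for PROM1, -0.39 for the dim CFTR probe set 217026_at, 0.76 for CD24 208650_s_at and 0.85 for CD24 209772_s_at. The other 4 CD24 probe sets were positive in both lines.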

How the results depend on the processing

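In every alternative that could be run for it, each marker kept the sign of its knockdown and control differences, except SPP1 in Hep-3B and CFTR in all 3, which lay near 0. Leaving out _x_at and _s_at probe sets could not be run for SPP1, SOX9, PROM1 and CD24, which have no other. The differences between lines of SOX9, CFTR and CD24 also changed sign, within -0.30 to 0.27. Called duct and progenitor genes together numbered 1 in Hep-3B, 12 in Huh7, 3 for the difference between lines and 24 between controls. In Hep-3B the count was 0 without _x_at and _s_at probe sets, after quantile normalization and when the line was fitted alone, 3 without dim genes, 5 with an intensity trend and robust moderation, 4 with array weights, and 2 when all single-symbol probe sets were fitted together. In Huh7 it was 4 without _x_at and _s_at probe sets. For the difference between lines it was 1 with the mean of probe sets or without _x_at and _s_at probe sets, and 5 with the intensity trend. Leaving out each array in turn gave 0 to 6 in Hep-3B, 2 to 14 in Huh7, 0 to 4 for the difference between lines and 19 to 26 between controls. Same-numbered arrays did not deviate together (r of deviations 0.0617 in Huh7 and -0.0704 in Hep-3B), and a replicate block gave 1, 12, 1 and 23, with DLK1 as the 1 gene called between lines. KRT19, FZD7, YAP1 and SOX12 did not pass for that difference under the block (limma adjusted p = 0.0701, 0.0592, 0.0617 and 0.0617).

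Directions reversed as follows, and the cause was not tested. In Huh7 the mean of probe sets gave -0.30 for BICC1 and -4e-04 for ANPEP, and leaving out _x_at and _s_at probe sets gave -0.10 for ANPEP and 0.14 for DLK1. Between controls, leaving them out gave 0.066 for ANPEP, 0.086 for DLK1, 0.056 for IGF2BP3 and -0.045 for ITGA4, and the mean of probe sets gave -0.11 for WWTR1 and 0.20 for PECAM1. With 2 arrays per group the spread is poorly known, and probe sets as dim as those of CFTR say little about change.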

Other observations

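Of the hepatocyte genes, which were not among the markers, TTR was called in both lines. TTR, the thyroid hormone carrier transthyretin, read 8.97 and 9.29 in Huh7 shKLHL23 against 7.78 and 8.02 in Huh7 shLuc, and rose by 1.23 (limma adjusted p = 0.00524). It read 10.30 and 10.83 in Hep-3B shKLHL23 against 9.01 and 8.96 in Hep-3B shLuc and rose by 1.58 (limma adjusted p = 0.0148). With the Hep-3B arrays fitted alone the difference was the same, and TTR did not pass. Of the 9 measured hepatocyte genes 2 rose in Huh7, the other being FGA, a fibrinogen chain, at 0.38 (limma adjusted p = 0.0379), and 1 rose in Hep-3B. TTR did not pass in Huh7 without Huh7 shLuc replicate 1, at 1.11. In Hep-3B it did not pass without either shLuc replicate, at 1.61 and 1.55, or without shKLHL23 replicate 3, at 1.31. FGB, another fibrinogen chain, did not pass on its brightest probe set, at 0.80 in Huh7 (limma adjusted p = 0.0536) and -0.67 in Hep-3B (limma adjusted p = 0.179). Its other probe set, 204988_at, gave 0.88 in Huh7 (limma adjusted p = 0.0123 over all probe sets) and -0.40 in Hep-3B (limma adjusted p = 0.251), with a difference between lines of 1.28 (limma adjusted p = 0.0404).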
